A study of Mus musculus with 6 samples.

Results

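The genes described here encode the receptors for interleukins outside the IL6 family, as mouse myoblasts express them with and without transforming growth factor beta (TGFb). Membership was decided by name: every array feature whose gene symbol begins with Il, a number and the letter r was taken, except those of the IL6 and IL11 receptors Il6ra, Il11ra1 and Il11ra2. That gave 39 genes on 53 features, of 36499 genes on 55681 features in all. Within this set Il21r was named in advance as a gained gene, chosen from its own difference between these 6 arrays, so its values are described and not tested. The symbol rule also took Il1rn, which encodes the secreted IL1 receptor antagonist and is not a receptor, and Il1rapl1 and Il1rapl2, receptor-like genes known mainly from neurons.

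The arrays measured total RNA of FACS-sorted primary myoblasts from the skeletal muscle of male C57BL/6 mice aged 3 months, grown in DMEM with 20% fetal bovine serum. One group of 3 arrays held cells kept with TGFb for 4 days, and the other group of 3 held untreated cells. No genetic change separates the groups, which share strain, sex, age, sorting and medium, and the TGFb isoform and dose are not given in the sources used here. Names of the deposited scanner files give the number 2 to both untreated replicate 1 and untreated replicate 2, so it is uncertain whether all 3 untreated arrays are separate cultures, and p-values measure only the spread between these arrays.

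Interleukin receptors are assembled from chains, most of which bind a ligand only as pairs or larger complexes. The receptors for IL2, IL4, IL7, IL9, IL15 and IL21 share the common gamma chain (Il2rg) and signal through JAK kinases and STAT factors, as do the class II receptors of the IL10 and interferon lambda group and the IL12 family. Receptors of the IL1 family signal through Myd88 and IRAK kinases, those of the IL17 family through the adaptor Act1 (Traf3ip2), and both lead to NF-kB. These families are best known from leukocytes, and several chains are also found in muscle, fibroblasts and epithelium.

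An array feature holds DNA strands of 60 bases, meant to capture the labelled copy of the transcript it is named for. The windows of 30 bases printed here come from the features on which the values of Il21r, Il15ra, Il4ra and Il1rl1 rest. They are given 5′ to 3′ as in the deposited files, and all lie on the + strand of build mm9. Where these stretches lie relative to exons and untranslated regions was not determined here, because an annotation of that build was not used.
Il21r, window chr7:132776754-132776783 of the feature chr7:132776725-132776784: taccattggttaAATAAAattggctgcaac
Il15ra, feature for NM_133836, window chr2:11655440-11655469: atatgtaTGTGTGTGTGTGTGTGTatgtaa
Il15ra, feature for NM_008358, window chr2:11654821-11654850: cagtaccaatgacTGTGagggccagcagca
Il4ra, repeat-bearing feature, window chr7:132712564-132712593: tgccagcacTGTGTGTGTGTGccacatgga
Il4ra, feature that stood for the gene, window chr7:132722922-132722951: accTGTtgggaattccaaccctcaccagtc
Il1rl1, feature for NM_001025602, window chr1:40522188-40522217: ccattgactcctTGTGTGTtttcttcatgt
Il1rl1, feature for NM_010743, window chr1:40504789-40504818: tctagatttctgaGTGTactttagttcacg
Capitals in the Il21r window mark the letters AATAAA, the commonest polyadenylation signal, found near the 3′ end of many transcripts. In the other windows capitals mark the longest stretch in which G and T alternate. That stretch is 17 bases long on the first Il15ra feature and 12 on the first Il4ra feature, against 4 and 3 on the second feature of each gene. On the Il1rl1 features it is 7 and 4 bases long. These windows are shown because the length of the stretch goes with how far a feature differed between scan days, as described with Il15ra.

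Signals are given as log2 of the processed intensity minus the array's own 75th percentile, so a value of 0 is a signal equal to that percentile. A feature counts as detected on an array where the scanner software marked it well above background. The 75th percentile lay between 879.2 and 1578 intensity units, and 50.6% to 55.8% of all features were detected on each array. The file headers record 2 scan days, with 1 treated array (replicate 1) and the untreated arrays 1 and 2 on the first, and treated arrays 2 and 3 with untreated array 3 on the second. The first principal component held 72.4% of the variance and the next 16.3%, and their relation to scan day and treatment was not tested. Because the groups are unevenly divided between the scan days, differences are given from a fit with group alone and from one that also holds scan day. They are also given within each day. All 11 tested myogenic markers were detected on every array, among them Pax7, Myod1 and Myog, whereas Myf5 was detected on 1 untreated array. None of the 11 passed the limma test without scan day, where 2 had an unadjusted p below 0.05, against 8 with it. With scan day Ncam1 was higher (1.28 ± 0.16, limma adjusted p = 0.0106) and Des lower (-1.28 ± 0.16, adjusted p = 0.00991). Over all genes 4.6% were then called higher and 5.61% lower.

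Most of these receptor genes were dim or undetected in myoblasts. Of the 39 genes, 26 were detected on at least 1 array, 17 on at least 3 of 6 and 12 on all 6. As shares, 66.7% were detected on at least 1 array against 69.2% of all genes, so detection on no array was about as frequent as over the whole array. The shares were lower for detection on at least 3 arrays, at 43.6% against 60.2%, and on all 6, at 30.8% against 50.3%. The 13 genes detected on no array were Il2ra and Il7r of the gamma chain group, Il5ra, Il1r2, Il1rl2, Il1rn, Il1rapl1 and Il18r1 of the IL1 family, Il17rb, the class II chains Il10ra, Il20ra and Il22ra2, and Il27ra. Another 9 genes were detected on 1 or 2 arrays and were not tested: Il2rb, Il2rg, Il9r, Il13ra2, Il1rapl2, Il22ra1, Il12rb2, Il23r and Il31ra. Of these, Il2rb, Il13ra2, Il22ra1 and Il12rb2 were each detected on TGFb replicate 1 and untreated replicate 2, which shared slide 3, and on no other array. Over all 53 features the share detected was 50.9% on TGFb replicate 1 and 47.2% on untreated replicate 2, against 34% to 43.4% on the others.

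Il21r, the ligand-binding chain of the IL21 receptor, was detected on every treated and on no untreated array. Its signal in TGFb-treated cells was -3.63, -1.44 and -1.92, well above background on all 3 arrays. In untreated cells it was -7.39, -7.77 and -6.03, above background on none. The groups did not overlap, and the lowest treated array lay above the highest untreated array. Against the lowest signal that counted as detected on the untreated arrays, the treated level was at least 9.41-fold higher. This feature passed the filter for testing only through the treated group, so a difference was built into its selection. Within scan day 1 the difference was 3.95 on the log2 scale and within day 2 it was 4.35, both measured against undetected spots. Both treated arrays of day 2 were brighter than the treated array of day 1. The bound was 3.38-fold with normexp background correction and 3.22-fold in the authors' deposited table, so its size depends on how dim signals are treated. It was 14.8-fold without TGFb replicate 1.

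The other chain of that receptor, Il2rg, was detected on untreated replicate 2 and on none of the 5 other arrays. The ligand gene Il21 was detected on none, and neither were Il4 and Il13. Il2rb, the signalling chain for IL2 and IL15, was detected on 1 array of each group.

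Il21r is best known from lymphocytes, so markers of these cells were read beside it. Of 15 lymphocyte markers, 7 were detected on no array, among them Cd3d, Cd8a, Cd2, Cd79b, Ms4a1 and Klrb1c. The pan-leukocyte gene Ptprc was detected on 1 TGFb array and no untreated array. Another 4 markers, Cd3e, Cd4, Lck and Zap70, were detected on all 6 arrays. Cd3g, a T cell receptor component, was detected on 3 TGFb arrays and 1 untreated array, at -4.57, -4.40 and -4.39 against -6.31, -6.20 and -5.01. Its groups did not overlap, as for Il21r, and its difference of 1.15 ± 0.27 with scan day did not pass (limma adjusted p = 0.059). Cd79a, a B cell receptor component, was detected on 2 TGFb and 3 untreated arrays, and gave 0.66 ± 0.20 with scan day (limma adjusted p = 0.132) in a fit without its flagged spot on TGFb replicate 3. The summed level of all 15 ranged from 0.68 to 3.65 in TGFb and from 0.77 to 1.31 in untreated cells. The high end came from Cd4, at 3.48 on TGFb replicate 3 and between -0.95 and 0.52 on the other arrays. None of the 6 tested lymphocyte markers passed the limma test in either fit, with 1 below an unadjusted p of 0.05 without scan day and 3 with it, and the part of such cells in the Il21r signal was not tested. In bulk RNA, a change in how many cells express a gene and a change in RNA per cell cannot be told apart.

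**Figure D1:**
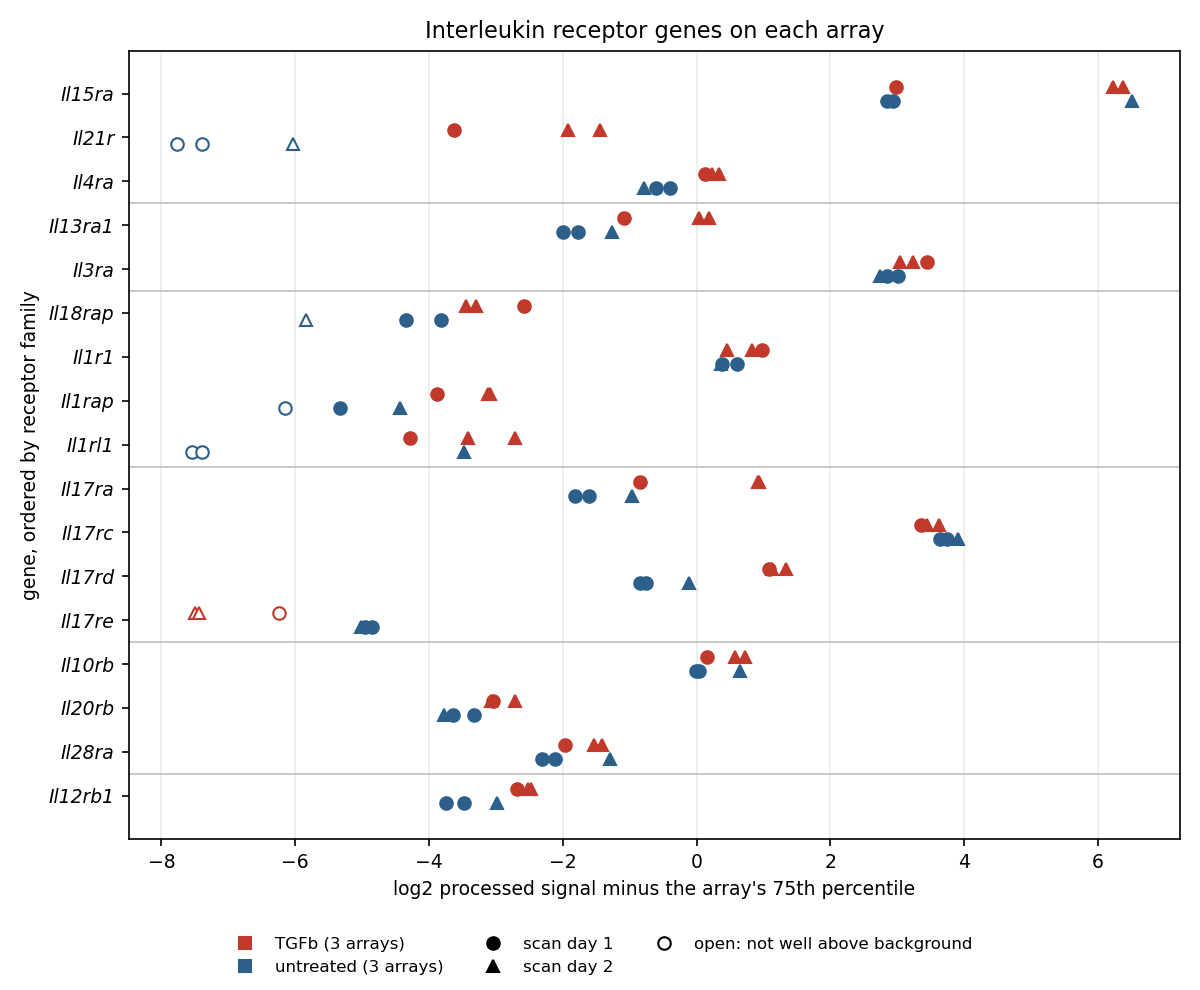
Signal of the 17 interleukin receptor genes detected on at least 3 of 6 arrays, 1 point per array, as log2 processed signal minus the array's 75th percentile. Red is TGFb and blue untreated, circles are scan day 1 and triangles day 2, and open symbols were not well above background. Il21r is open on all 3 untreated arrays, Il17re on all 3 TGFb arrays, and Il15ra separates by scan day in place of treatment.

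Apart from Il21r, 16 receptor genes could be tested within the fit over all 21960 genes. With group as the only term none of the 16 passed an adjusted p of 0.05, in either direction, while 8 had an unadjusted p below 0.05. Across all genes that fit called 1.4%, 153 higher and 155 lower. Once scan day was added, 6 of the 16 passed as higher and 1, Il17re, as lower, beside 4.6% of all genes called higher and 5.61% called lower. The smallest limma adjusted p was 0.0615 in the first fit and 0.00804 in the second, both for Il17rd. Differences were positive for 14 of the 16 genes without scan day and for 13 with it, against 52.8% and 53.5% of all genes. Their median was 0.84 without the term and 0.68 with it, against 0.05 and 0.04 over all genes. All TGFb arrays lay above all untreated arrays for 9 of the 16, beside 8.45% of all tested genes, and below them for 2, beside 9.51%. These counts describe the members that passed the detection filter, and Il17re passed it only through the untreated group, so a difference was built into its downward call.

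**Figure D2:**
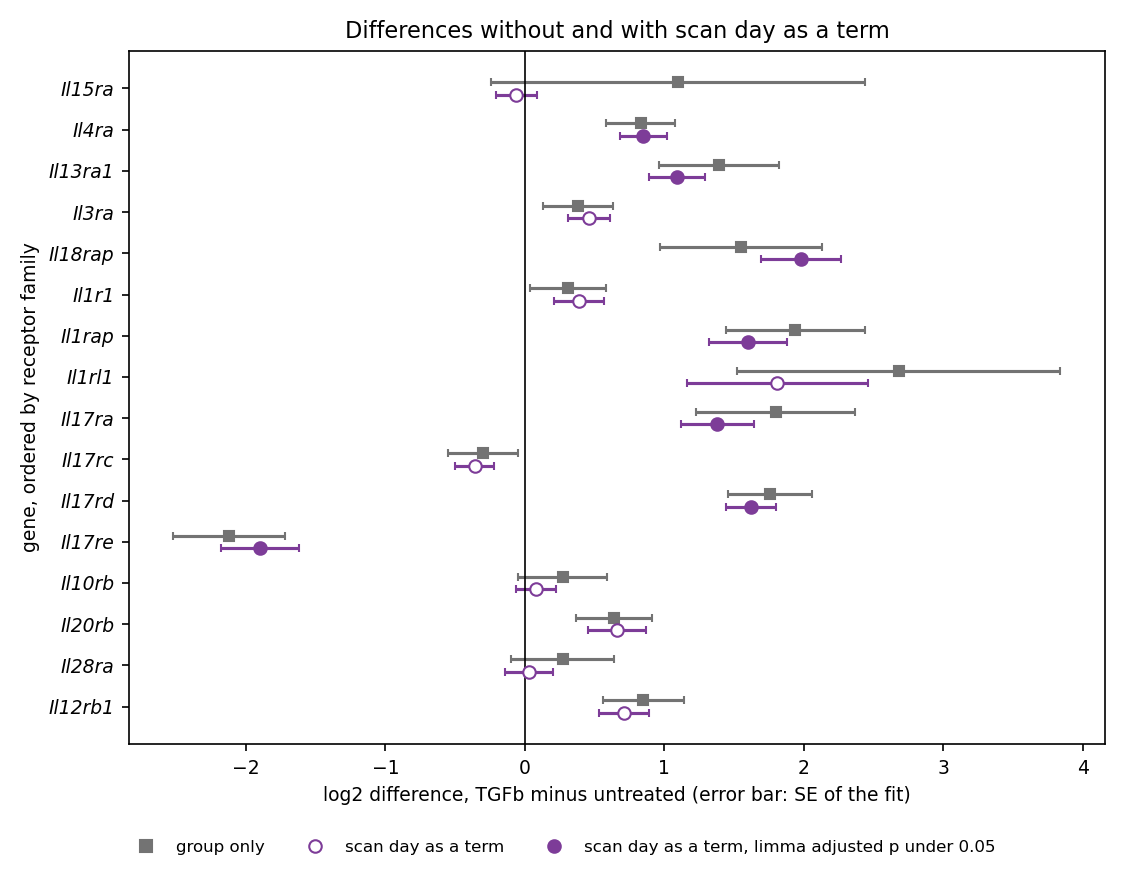
Fitted log2 difference, TGFb minus untreated, of the 16 tested receptor genes other than Il21r. Grey squares are the fit with group alone and purple circles the fit that also holds scan day, with bars of 1 SE and filled circles where the limma adjusted p was under 0.05. The 7 filled circles are Il4ra, Il13ra1, Il18rap, Il1rap, Il17ra and Il17rd to the right of 0 and Il17re, which was not detected on any TGFb array, to its left.

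In the common gamma chain group, Il4ra rose with TGFb once scan day was included. The gene encodes the chain that signals for IL4 and, paired with Il13ra1, for IL13. The feature that stood for it read 0.13, 0.34 and 0.23 in TGFb and -0.40, -0.61 and -0.79 in untreated cells. Every treated array was above every untreated one. The difference was 0.85 ± 0.17 (SE) with scan day included (limma adjusted p = 0.0408) and 0.83 ± 0.25 without it (adjusted p = 0.251), and within days it was 0.63 and 1.07. The gene's other feature, with the repeat, read -3.75 in TGFb and -3.12 and -3.35 in untreated cells on day 1, and 1.20, 2.28 and 1.92 on day 2. Treatment groups overlapped on it, and its difference with scan day included was -0.35 ± 0.33 (adjusted p = 0.555 in the fit that kept every feature). The 2 features of Il4ra therefore disagree, and the gene's call rests on the one that did not shift between days.

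Il15ra, the chain that presents IL15 to neighbouring cells, gave values that followed scan day. The feature that stood for the gene read 2.98 in TGFb and 2.93 and 2.84 in untreated cells on day 1, then 6.22 and 6.38 in TGFb and 6.51 in untreated cells on day 2. Day 2 exceeded day 1 by 3.32 in treated and 3.62 in untreated cells. Because 2 of the 3 treated arrays were scanned on day 2, the fit with group alone gave 1.10 ± 1.34 (limma adjusted p = 0.788), and the one that held scan day -0.06 ± 0.15 (adjusted p = 0.854). The other Il15ra feature was dim and read -3.72, -3.93 and -3.35 in TGFb and -3.35, -2.85 and -4.10 in untreated cells. It showed no such step between days. Within days the difference on the first feature was 0.09 and -0.21. The bright signal is therefore uncertain as a level of Il15ra.

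Across the array the step between days went with the alternating stretch printed in capitals. Among 28501 features whose longest stretch was at most 5 bases, the median difference of day 2 over day 1 was 0.03. It was 0.39 for 6 to 7 bases, 1.78 for 8 to 9, 4.81 for 10 to 11, 4.31 for 12 to 15 and 2.65 for 16 or more. A step above 2 on the log2 scale was seen in 3.01% of features with at most 5 such bases and in 96% of those with 16 or more. The 333 features with at least 8 bases had a median TGFb difference of 1.01 without scan day in the fit and 0.06 with it. For the 29672 others these medians were 0 and 0.04. Base composition went with the step too, at 0.72 for features with at most 21 G and C bases and -0.75 for those with 31 or more. Both are descriptions over features that share these 6 arrays. Among the 17 receptor genes, Il15ra was the only one represented by a feature with a stretch of 8 bases or more, and the next longest was the 7 bases of Il1rl1. Low G and C content was more widely shared. The Il21r feature has 20 such bases, and those of Il10rb, Il15ra, Il17ra, Il17rd, Il1r1, Il1rl1 and Il28ra have 21. All of these but Il1r1 were brighter on day 2 in each group. Il21r differed by 1.96 in treated cells and 1.55 in untreated cells, where it was undetected, and Il1r1 by -0.34 and -0.13.

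**Figure D3:**
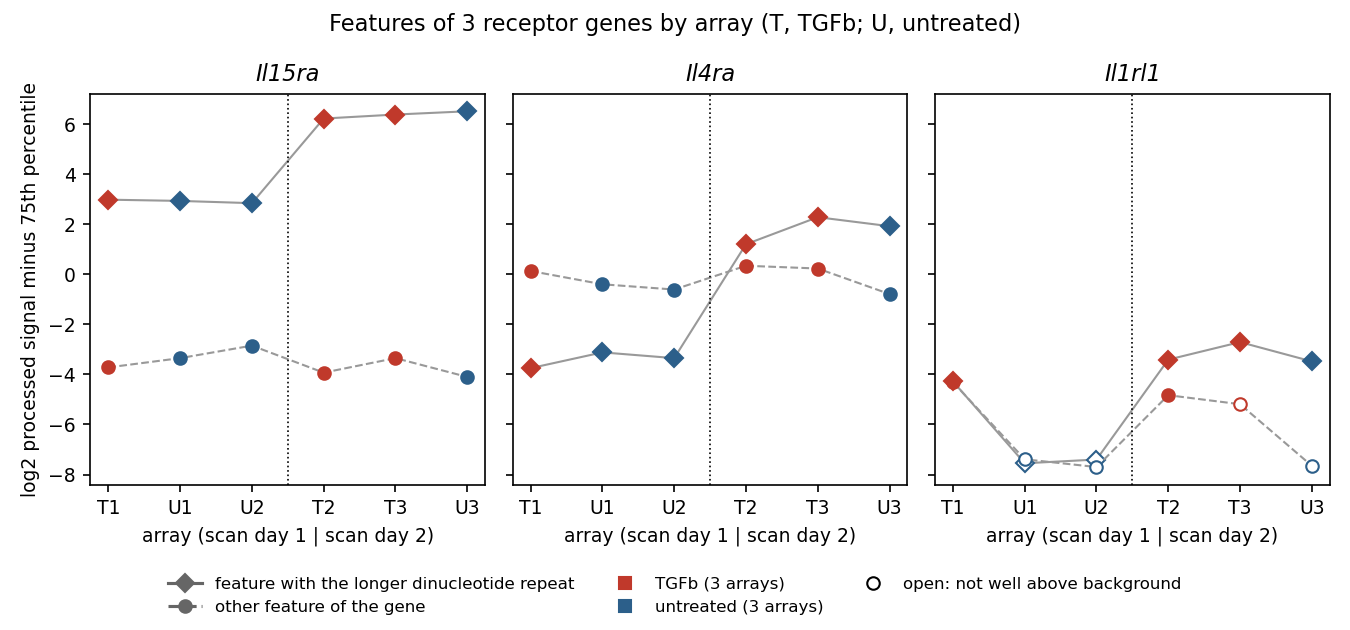
Both detected features of Il15ra, Il4ra and Il1rl1 on each array, ordered by scan day, as log2 processed signal minus the 75th percentile. Diamonds are the feature with the longer dinucleotide repeat, circles the other feature, red TGFb, blue untreated, and open symbols not well above background. The diamonds of Il15ra move from between 2.84 and 2.98 on day 1 to between 6.22 and 6.51 on day 2, whereas its circles stay between -4.10 and -2.85.

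**Figure D4:**
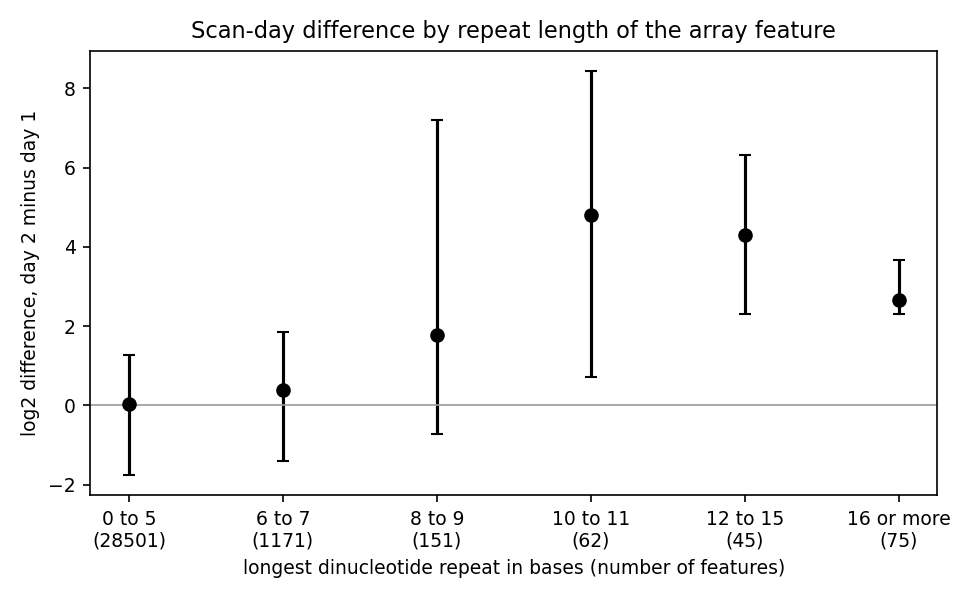
Log2 difference of scan day 2 over day 1, with treatment in the fit, for features grouped by the length of their longest alternating G and T stretch. Points are medians, bars run from the 10th to the 90th percentile over features, and the number of features is under each group. Medians are 0.03 and 0.39 for the shortest groups and 1.78 to 4.81 for stretches of 8 bases or more.

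Il13ra1, which joins Il4ra in the receptor that responds to both IL4 and IL13, also rose with scan day in the fit. It read -1.09, 0.04 and 0.19 in TGFb and -1.77, -2.0 and -1.26 in untreated cells. The lowest treated array, the one of day 1, lay just above the highest untreated array, that of day 2. With scan day as a term the difference was 1.09 ± 0.20 (limma adjusted p = 0.0291) and within days 0.80 and 1.38. Without the term it was 1.39 ± 0.43 (adjusted p = 0.271). Il3ra, the IL3-binding chain, was detected on all arrays, at 3.24 ± 0.20 (SD, n = 3) in TGFb and 2.86 ± 0.14 (SD, n = 3) in untreated cells. Its groups did not overlap, and its difference of 0.46 ± 0.15 with scan day did not pass (limma adjusted p = 0.123). Its shared partner Csf2rb was detected on 2 TGFb and 3 untreated arrays and gave -0.07 ± 0.28 with scan day. Il13ra2, the IL13 decoy, was detected on 1 array of each group and Il5ra on none.

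Within the IL1 family, both accessory chains were higher in treated cells when scan day was in the fit. Il1rap, which completes the receptors for IL1, IL33 and IL36, read -3.88, -3.09 and -3.12 in TGFb and -6.15, -5.33 and -4.44 in untreated cells, where untreated replicate 1 was below background. The groups did not overlap on this feature, and the difference was 1.60 ± 0.28 with scan day (limma adjusted p = 0.0275) and 1.94 ± 0.50 without it (adjusted p = 0.187). Its other feature, for NM_008364, was detected on 2 treated and 1 untreated array and gave 0.92 ± 0.63 (adjusted p = 0.419 in the fit that kept every feature). Il18rap, the accessory chain for IL18, read -2.58, -3.30 and -3.44 in TGFb and -3.82, -4.34 and -5.84 in untreated cells, the last below background. Here day 1 was the brighter day, and within days the difference was 1.5 and 2.46. It was 1.98 ± 0.29 with scan day included (limma adjusted p = 0.016) and 1.55 ± 0.58 without it (adjusted p = 0.381). The chain that binds IL18, Il18r1, was detected on no array.

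Il1rl1, the IL33 receptor also called ST2, gave unlike values between untreated arrays. The feature that stood for it, for NM_001025602, read -4.28, -3.41 and -2.71 in TGFb and -7.55, -7.40 and -3.48 in untreated cells. Untreated replicate 3, of scan day 2, was the one untreated array above background and lay within the treated range. The difference was 3.20 within day 1 and 0.42 within day 2, and 1.81 ± 0.65 with scan day included (limma adjusted p = 0.152). Leaving out untreated replicate 3 gave 4.01 without the term (limma adjusted p = 0.0484). The feature is then detected in treated cells alone and the difference rests on undetected untreated spots, so this call is not read as a result. On the feature for NM_010743 the groups did not overlap, at -4.31, -4.83 and -5.19 in TGFb and -7.39, -7.70 and -7.65 in untreated cells. That feature was above background on 2 of 3 treated arrays and on no untreated array, which makes the treated level at least 1.72-fold higher. It was detected on too few arrays to be tested, and its differences within days were 3.24 and 2.64. A further feature of the gene was below background throughout. Il1r1, the signalling IL1 receptor, was at 0.76 ± 0.27 (SD, n = 3) in TGFb and 0.45 ± 0.14 (SD, n = 3) in untreated cells, with overlapping groups and a difference of 0.39 ± 0.18 with scan day (limma adjusted p = 0.24).

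The lowest adjusted p among the tested receptor genes was that of an IL17 receptor. Il17rd, also known as Sef and described as a restraint on fibroblast growth factor signalling, read 1.08, 1.34 and 1.13 in TGFb and -0.85, -0.75 and -0.12 in untreated cells. All treated arrays lay above the untreated ones. The difference was 1.62 ± 0.18 with scan day (limma adjusted p = 0.00804) and 1.76 ± 0.30 without it (adjusted p = 0.0615), and within days 1.88 and 1.35. Il17ra, the chain shared by the IL17 receptors, read -0.85, 0.93 and 0.92 in TGFb and -1.61, -1.82 and -0.97 in untreated cells. Its treated array of day 1 was barely above the untreated array of day 2, so the groups were separate by a narrow margin. With scan day it gave 1.38 ± 0.26 (limma adjusted p = 0.0348), within days 0.87 and 1.89, and without the term 1.80 ± 0.57 (adjusted p = 0.278).

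Il17rc, which pairs with Il17ra to bind IL17A and IL17F, was detected on all arrays. It read 3.35, 3.45 and 3.62 in TGFb and 3.75, 3.64 and 3.91 in untreated cells, and its other feature was also lower on every treated array. The differences of -0.36 ± 0.14 (limma adjusted p = 0.177) and, on that other feature, -0.61 ± 0.18 (limma adjusted p = 0.107) with scan day did not pass. Il17re, which binds IL17C with Il17ra, was detected in untreated cells alone. It read -4.85, -4.95 and -5.01 in untreated cells, just above background on all 3 arrays, and -6.24, -7.50 and -7.44 in TGFb, below background on all 3. The treated level was at least 1.27-fold lower. The gene entered the test only through the untreated group and its fitted difference rests on undetected treated spots, so its call is not read as a result. Il17rb, the IL25 receptor, was detected on no array.

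**Figure D5:**
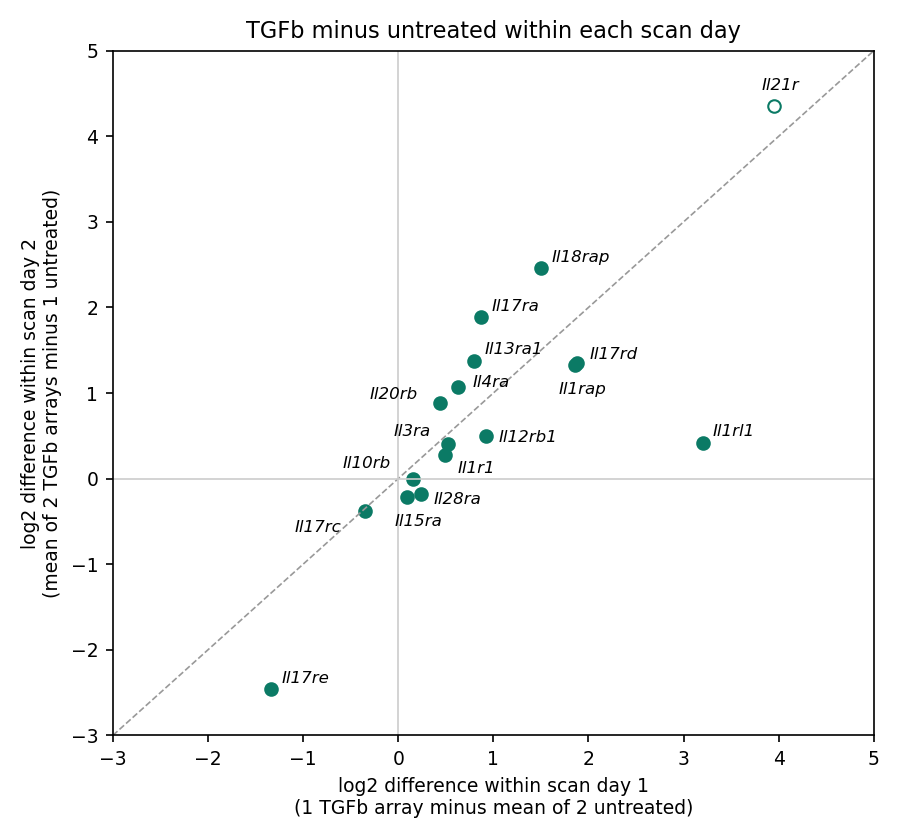
Difference of TGFb from untreated within scan day 1 (horizontal, 1 treated array minus the mean of 2 untreated) and within day 2 (vertical, mean of 2 treated minus 1 untreated) for the 17 receptor genes, in log2 units. The dashed line marks equal differences and the open circle is Il21r. Il1rl1 stands off the line at 3.20 and 0.42, and Il17re lies at -1.34 and -2.46.

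No class II chain passed the test in either fit. Il10rb, shared by the IL10, IL22 and interferon lambda receptors, was at 0.49 ± 0.29 (SD, n = 3) in TGFb and 0.22 ± 0.37 (SD, n = 3) in untreated cells, with overlapping groups and a difference of 0.08 ± 0.14 with scan day (limma adjusted p = 0.766). Il28ra, now named Ifnlr1, the other chain of the interferon lambda receptor, gave 0.03 ± 0.17 (limma adjusted p = 0.931). Il20rb, a chain of the IL20 receptors, was at -2.94 ± 0.20 (SD, n = 3) in TGFb and -3.58 ± 0.23 (SD, n = 3) in untreated cells without overlap, and its 0.66 ± 0.21 did not pass (limma adjusted p = 0.115). Il20ra and Il10ra, the chains it and Il10rb would pair with for IL20 and IL10, were detected on no array. In the IL12 group only Il12rb1, the chain shared by the IL12 and IL23 receptors, was tested. It read -2.69, -2.47 and -2.52 in TGFb and -3.47, -3.75 and -2.99 in untreated cells. Those groups were separate, the difference was 0.71 ± 0.18 with scan day and it did not pass (limma adjusted p = 0.0678). The second Il12rb1 feature was detected on 3 arrays, all of scan day 1, and its groups overlapped.

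Each of the 6 upward calls made with scan day included was lost when some single array was left out, with that term kept. For Il17rd these were TGFb replicate 1 (adjusted p = 0.0584) and untreated replicate 2 (adjusted p = 0.0555). Il18rap lost its call without untreated replicate 2 (adjusted p = 0.0736) or 3 (adjusted p = 0.118). Il1rap lost it without TGFb replicate 1 (0.154) or 2 (0.0679) or untreated replicate 2 (0.065) or 3 (0.135). Il13ra1 kept its call only without TGFb replicate 3 and otherwise ranged from 0.0607 to 0.195. Il17ra kept it only without TGFb replicate 1, ranged from 0.0528 to 0.156 otherwise, and fell to a difference of 0.87 without untreated replicate 3. Il4ra lost it without any one of the 6 arrays, at 0.0505 to 0.253. The direction was the same in all of these fits.

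Several of these genes are neighbours on the chromosome. The features of Il4ra and Il21r lie 53.8 kb apart on chromosome 7 of mm9, those of Il17re and Il17rc 13.0 kb apart on chromosome 6, and those of Il2ra and Il15ra 40.7 kb apart on chromosome 2. On chromosome 1 the features of Il1rl1 and Il18r1 lie 35.4 kb apart and those of Il18r1 and Il18rap 48.2 kb apart. Detection was not shared by all neighbours. Il17re was undetected in treated cells while Il17rc was detected on every array, and Il18r1 was undetected between Il1rl1 and Il18rap. Direction was shared by some. All treated arrays lay below the untreated ones for Il17re and Il17rc, and above them for Il21r and the feature that stood for Il4ra. A difference was built into the selection of Il21r and Il17re. Treated arrays also lay above for Il18rap, whereas groups overlapped on the features that stood for Il1rl1 and Il15ra.

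The 250 bases before the RefSeq transcription start (GRCm38.p6) were available for 32 of the 39 genes, with 39 starts. These were searched on both strands for CAGAC, the letters of a SMAD-binding box, because SMAD proteins carry the TGFb signal to the nucleus. The stretches of Il21r, the gained gene, and of Il17rd, which had the lowest adjusted p, are printed 5′ to 3′ on the + strand, with CAGAC or its complement GTCTG in capitals.
Il21r, chr7:125603179-125603428: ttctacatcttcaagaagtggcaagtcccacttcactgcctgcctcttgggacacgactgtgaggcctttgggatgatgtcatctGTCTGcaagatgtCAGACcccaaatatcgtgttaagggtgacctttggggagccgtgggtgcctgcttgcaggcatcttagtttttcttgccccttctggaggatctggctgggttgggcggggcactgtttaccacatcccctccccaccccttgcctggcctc
Il17rd, chr14:27038751-27039000: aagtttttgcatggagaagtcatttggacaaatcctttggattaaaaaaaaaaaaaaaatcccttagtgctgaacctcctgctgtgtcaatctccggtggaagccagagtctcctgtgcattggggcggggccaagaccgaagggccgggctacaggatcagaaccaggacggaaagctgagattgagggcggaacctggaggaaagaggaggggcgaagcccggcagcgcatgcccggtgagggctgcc
Il21r holds 2 matches, on opposite strands, and Il17rd none. Across all 32851 starts 42.2% of such stretches hold at least 1 match, and 17 of the 39 starts of these receptor genes do. Of the tested genes Il13ra1 also holds 2 matches, Il4ra, Il1rap, Il3ra and Il28ra 1 each, and Il17re and Il18rap none. Among untested genes, Il20ra, detected on no array, and Il22ra1, detected on 1 array of each group, hold 2 each as well. The AP-1 letters TGANTCA were found before 7 of the 39 starts against 6.75% of all, and the STAT letters TTCNNNGAA before 5 against 7.02%. No match of either was found for Il21r or for the 6 of the 7 called genes that had a stretch. These are letter matches only.

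Most ligand genes were not detected in these cells. Of 40 interleukin ligand genes on the array, 23 were detected on no array, Il1b, Il2, Il4, Il13 and Il21 among them, and 14 were tested. Over all 36499 genes, 11225 were detected on no array and 21960 were tested. Without scan day 1 of the 14 was lower and none higher. With it 2 were higher and 4 lower, beside 4.6% of all genes called higher and 5.61% called lower. Of the 4 lower, Il33 and Il15 entered the test only through the untreated group, which leaves 2 lower beside 2 higher. The median difference of the 14 was -0.76 without the term and -0.08 with it. The lower ones detected in both groups were Il17b (-2.06 ± 0.16 with scan day, limma adjusted p = 0.00317) and Il19 (-1.23 ± 0.14, adjusted p = 0.00778), and the higher ones Il34 (1.74 ± 0.21, adjusted p = 0.00955), a ligand of the CSF1 receptor, and Il18 (0.81 ± 0.14, adjusted p = 0.0248). Il33, the alarmin that binds Il1rl1, was detected on all 3 untreated and no treated array, at least 2.12-fold lower in treated cells. Il15, the ligand of Il15ra, had the same pattern, at least 3.85-fold lower. For both, a difference was built into their passing the filter, so only these bounds are given. Il1a was detected on 1 TGFb array.

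Downstream of the common gamma and related chains, 31 genes of the JAK-STAT arm were tested. None passed the limma test without scan day, where 1 had an unadjusted p below 0.05, while 3 were higher and 1 lower with it. Jak2 (1.07 ± 0.17, limma adjusted p = 0.0215), Irs2 (1.15 ± 0.22, adjusted p = 0.0353), an adaptor used by IL4 receptors, and the STAT-induced inhibitor Cish (0.83 ± 0.15, adjusted p = 0.0293) were higher. The phosphatase Ptpn6 was lower (-0.94 ± 0.14, adjusted p = 0.0192). The kinases that bind Il21r and Il2rg, Jak1 (0.37 ± 0.16) and Jak3 (0.61 ± 0.33), did not pass, nor did Stat3 (-0.25 ± 0.21), Stat6 (-0.20 ± 0.25) or Socs3 (0.32 ± 0.15), although these 5 were detected on every array.

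Of the 26 genes in the IL1 and IL17 signalling arm none passed the limma test without scan day, where 1 had an unadjusted p below 0.05, and 2 were higher and 1 lower with it. Nfkbiz, an NF-kB cofactor induced by IL17 and IL1, was higher (1.31 ± 0.15, limma adjusted p = 0.00912), as was Sigirr, an inhibitory member of the IL1 receptor family (1.23 ± 0.17, adjusted p = 0.0129), and Traf5 was lower (-0.92 ± 0.14, adjusted p = 0.0196). Myd88, the shared adaptor, gave 0.01 ± 0.13. Among 14 partner chains with other names, of which Ifnlr1 is the same gene as Il28ra and Sigirr is counted in both lists, 1 was lower without scan day, and 2 were higher and 2 lower with it. Csf2rb2, the mouse chain specific to IL3, was lower in both fits (-2.83 ± 0.17 with scan day, limma adjusted p = 0.00196). The oncostatin M receptor Osmr was higher (1.22 ± 0.17, adjusted p = 0.0153), and Il6st, the gp130 chain, was lower (-1.11 ± 0.15, adjusted p = 0.0144). Crlf2, the thymic stromal lymphopoietin receptor chain (0.65 ± 0.14, adjusted p = 0.0515), and Il18bp (-0.29 ± 0.15, adjusted p = 0.289) did not pass. Beside these counts stand the 4.6% and 5.61% called over all genes, and all these comparisons use the same 6 arrays as the receptors.

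Markers of other cells that carry interleukin receptors were read in the same way. Of 14 macrophage and granulocyte markers 6 were detected on no array, among them Cd68, Lyz2 and Fcgr1, while Csf1r, Cd14 and Itgam were detected on all 6. None of the 5 tested passed the limma test in either fit, with 0 below an unadjusted p of 0.05 without scan day and 1 with it. The summed level ranged from 4.04 to 6.87 in TGFb and from 4.05 to 6.06 in untreated cells, and Itgam alone read 3.95 to 6.85. Of 10 endothelial markers 6 were detected on no array and Pecam1, Kdr and Vwf on all 6. Vwf was lower with scan day included (-1.30 ± 0.13, limma adjusted p = 0.00637). The summed level ranged from -0.45 to 1.74 in TGFb and from 0.01 to 2.05 in untreated cells. Of 12 fibroblast and fibro-adipogenic markers 3 were detected on no array and 9 were tested. None of the 9 passed the limma test without scan day. With it 3 were lower and none higher, beside 5.61% of all genes called lower. These were Thy1 (-1.55 ± 0.14, limma adjusted p = 0.00493), Dcn (-2.57 ± 0.37, adjusted p = 0.0162) and Dlk1 (-2.42 ± 0.30, adjusted p = 0.0104). The summed level of the fibroblast and fibro-adipogenic markers ranged from 6.48 to 7.60 in TGFb and from 6.26 to 7.73 in untreated cells. On TGFb replicate 2 that sum leaves out Gsn, whose spot was flagged there and which read 4.14 to 6.02 on the other arrays. Col3a1 alone read 5.25 to 6.66 and Tcf4 3.52 to 5.63, whereas Thy1, Dcn, Pdgfra and Ly6a each read -1.47 or lower on every array. The sum therefore says little about these dimmer markers. The part of such cells in the receptor values was not tested.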

How the data were processed

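One scanner file per array was deposited, with the intensity of each spot extracted, per the file headers, by Agilent Feature Extraction 10.7.3.1, which subtracts background, and with coordinates of build mm9. The authors also deposited a table of log2 values of unstated normalization (column medians 7.11 to 7.12). Each column correlated best with its own array, so the values rise with signal. It served as an alternative.

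Control spots and 176 to 365 outlier spots per array were dropped. Values are log2 of processed intensity less the array's 75th percentile. Each gene was represented by the feature with the highest mean among those well above background on at least 3 of 6 arrays. The limma package 3.58.1 in R 4.3.3 was fitted over all genes, with group alone and with scan day as a term, with Benjamini-Hochberg adjustment and a threshold of 0.05, and was tested on simulated data. In a bound, each dim array counts at its lowest detected signal, or at the feature's own value where that is higher. RefSeq (GRCm38.p6) accessions updated names for 26300 features.

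The members and lists were chosen with earlier results of these data known. Receptor genes detected on at least 3 arrays are named with values, as are a fixed set of pathway genes and up to 6 per list past the threshold. Alternatives covered background correction, scaling, the deposited table, the detection filter, every feature, slide, the replicate number and each array left out. Deviations of same-numbered arrays correlated at 0.81, -0.72 and 0.69 for replicates 1, 2 and 3. The arrays numbered 1 shared a scan day, as did those numbered 3, while those numbered 2 did not. Scan day was not removed, so these values cannot show whether the numbers pair the arrays. The number of arrays limits the precision.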

Additional observations from a re-analysis of the deposited data

How the results depend on the processing

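Calls among the 16 receptor genes depended on scan day. Without that term none was higher or lower, and the counts became 6 higher and 1 lower with it, 6 higher in the authors' deposited table, 2 higher with slide as a term, 1 higher with normexp background correction, and 0 to 1 higher with 1 array left out. The call with 1 array left out was Il1rl1 without untreated replicate 3, and it rests on undetected untreated spots. The calls in the deposited table were Il17rd, Il4ra, Il17ra, Il13ra1, Il3ra and Il18rap. With the replicate block, no receptor gene was called, and over all genes 2 were higher and 0 lower. Over all genes the counts of 153 higher and 155 lower became 1011 and 1231 with scan day, 1572 and 1708 in the deposited table, 365 and 411 with slide, and 0 to 117 and 0 to 78 with 1 array left out. With scan day kept and other settings changed, alternatives chosen after seeing the data gave 2 higher receptor genes with no filter on dim features, and 0 lower with normexp correction or with detection required on all 6 arrays. All genes were then 1521 higher in the deposited table, and 615 higher and 698 lower without the filter. With scan day and 1 array left out, receptor genes were 0 to 4 higher and 0 to 1 lower, and all genes 147 to 1535 higher and 183 to 1808 lower. The median of 0.84 over receptor genes became 0.42 in the deposited table and 0.40 with no filter. Il15ra reversed to -0.06 with scan day and -0.07 with slide. In fits with scan day it was 0.01 with quantile normalization, 0.02 in the deposited table and -0.21 to 0.09 with 1 array left out, where Il28ra ranged from -0.18 to 0.24. The bound for Il21r was 3.38-fold with normexp correction and 3.22-fold in the deposited table. Receptor genes detected rose from 17 to 26 when any 1 array sufficed. Apart from Il15ra and Il28ra, no named receptor gene changed direction under any alternative in the 1 feature taken for it. Second features are outside that statement. The second feature of Il4ra gave -0.35 with scan day, opposite to the feature that stood for the gene, and 1.42 without it, in the same direction. That of Il12rb1, detected on scan day 1 alone, gave -0.73 without scan day, the opposite direction, and 0.17 with it, the same direction. For Il15ra the second feature gave -0.24 without scan day, opposite to 1.10, and -0.08 with it, beside -0.06. The cause of these differences was not tested. Leaving out an array also leaves fewer samples, and a low signal over background limits Il21r, Il17re, Il1rl1, Il1rap and Il18rap in particular. With scan day kept, the difference of 1.98 for Il18rap became 1.00 with normexp correction and 0.86 in the deposited table. That of 1.60 for Il1rap became 0.71 and 0.58, whereas the brighter Il17rd went from 1.62 to 1.55 and 1.58.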
